A study of Mus musculus with 4 samples.

Results

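The 6 genes Ung, Apex1, Apex2, Msh6, Pms2 and Exo1 encode base excision and mismatch repair enzymes that process the DNA lesions made by AID, the activation-induced deaminase of B cells. They were chosen by name: every gene probe annotated to a RefSeq transcript of one of these symbols was taken, which gave 7 of the 39429 probes on the array, 2 of them for Pms2, and 6 of the 32580 genes or unnamed transcripts they stand for. The rule used names alone, but the genes were picked with earlier results of these data known.

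AID turns cytosines of transcribed immunoglobulin switch and variable regions into uracils. In base excision repair a glycosylase removes the uracil and an endonuclease cuts the strand at the abasic site left behind. In mismatch repair the uracil-guanine mismatch is bound by a MutS heterodimer, nicked by a MutL heterodimer and opened by an exonuclease. In B cells these routes turn deaminated switch regions into the breaks needed for class switching, while elsewhere in the genome the same enzymes restore the original sequence.

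The samples were splenic B cells from 2 genotypes, Aff3-/- and Aff3+/-, with 2 samples each. Aff3 encodes a lymphocyte-expressed member of a family of transcription elongation factors, and every sample carried at least 1 disrupted Aff3 allele, so no wild-type cells were compared. B cells were isolated by dropping cells that bear CD43, a surface protein of T cells and of activated or antibody-secreting B cells, and were cultured for 3 days with LPS (10 ug/mL), a TLR4 ligand, plus IL-4 (10 ng/mL), a combination that drives switching to IgG1 and IgE. The labels used here give neither the age of the mice nor how the Aff3 allele was made, and do not say whether samples came from separate mice. A p-value below therefore reflects how these 4 samples scatter, which may be technical. Aff3 expression was not analysed here, and the genotypes rest on the labels alone.

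Each sample was hybridised to 1 single-colour Agilent array, and all 4 arrays lay on 1 slide. The scanner software called 24970 to 25895 probes per array well above background, and none saturated. All 10 B cell markers were well above background on all 4 arrays, among them Cd22, a B cell inhibitory receptor. Their summed intensity was 299808 to 377154 in Aff3-/- cells and 334322 to 349568 in Aff3+/- cells. The 11 T cell markers summed to 12675 to 13516 in Aff3-/- cells and 12868 to 13552 in Aff3+/- cells, and 9 of them passed the filter on dim probes. The sum does not stand for every T cell marker: 5 of the 9 were above 0 and 4 below, and 3 lay higher on both Aff3-/- arrays than on both Aff3+/- arrays. These were Thy1 (+1.09 ± 0.37 on the log2 scale), Cd8a (+1.01 ± 0.43) and Cd28 (+0.33 ± 0.13), each with an adjusted p of 1.00 by limma, and Thy1 alone of the 9 had an unadjusted p under 0.05. Of all features, 8.45% lay higher on both Aff3-/- arrays than on both Aff3+/- arrays, and 2.04% had such an unadjusted p with limma. Cd8a was dim, at 20.4 and 30.2 units on the Aff3-/- arrays and 8.3 and 18.6 on the Aff3+/- arrays. The defining T cell receptor genes Cd3d (+0.07 ± 0.12) and Cd3e (-0.11 ± 0.15) overlapped between the genotypes, and Cd3d was dim too, at 15.3 to 17.8 units. Cd3g was not well above background on any array. The 7 plasma cell markers summed to 71649 to 73304 in Aff3-/- cells and 59740 to 70637 in Aff3+/- cells, which did not overlap. This sum of unscaled intensities does not stand for each marker, since Xbp1 alone had 38542 to 46382 units. After scaling, 1 of the 7 lay higher on both Aff3-/- arrays, as 8.45% of all features did, and the others overlapped. Of 7 erythroid markers 6 were on the array, and these summed to 59.2 to 118.8 in Aff3-/- cells and 56.3 to 83.2 in Aff3+/- cells. Only 4 of them passed the filter. Not every other lineage list summed low. Myeloid markers summed to 110935 to 122909 in Aff3-/- cells and 113386 to 126933 in Aff3+/- cells, mostly from Csf3r. Dendritic cell markers summed to 115249 to 123734 in Aff3-/- cells and 126056 to 131349 in Aff3+/- cells, mostly from Siglech. These dendritic sums did not overlap. Of the 3 dendritic markers that passed, 1 was above 0 and 2 below. After scaling, Zbtb46 lay higher on both Aff3-/- arrays (+0.52 ± 0.16, unadjusted p = 0.024 by limma). Siglech lay lower on both (-0.11 ± 0.12), as 11.2% of all features did, and Flt3 overlapped. Of the 5 stromal and endothelial markers that passed, 1 was above 0 and 4 below, and 2 lay lower on both Aff3-/- arrays. No dendritic or stromal marker passed the adjusted threshold. The source of these signals was not tested.

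All 6 genes were expressed above background on every array, and none passed the test for a difference between the genotypes. The 7 probes gave processed intensities between 250.5 and 46690, where the lowest signal counted as well above background was 5.96 to 6.95 units on an array. Their differences between Aff3-/- and Aff3+/- cells lay between +0.0085 and +0.12 on the log2 scale, at most 8.51%. The scanner software put the error of each of these spots at 10.0% of its signal. That share was the same for dim and bright spots and does not measure scatter between arrays, so the differences were not judged by it. With limma none of the 6 genes passed the threshold (adjusted p = 1.00 for each), as 0% of all 20651 features did, and none reached an unadjusted p under 0.05, as 2.04% of all features did. Values below are log2 signals relative to the array's 75th percentile unless given as intensities, and errors of differences are standard errors.

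**Figure D1:**
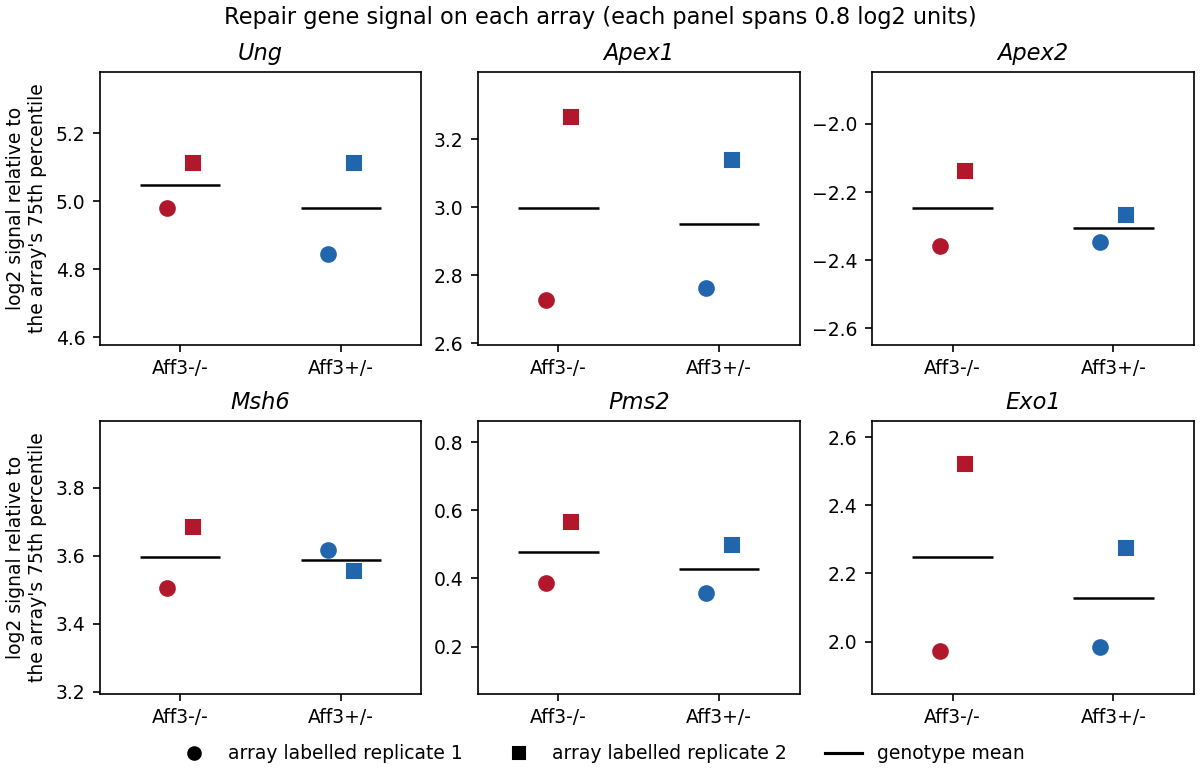
Log2 signal of each of the 6 genes relative to the array's 75th percentile, with Aff3-/- arrays in red and Aff3+/- arrays in blue, circles for arrays labelled replicate 1, squares for those labelled replicate 2, and bars for the genotype means. The genotypes overlap in every panel, and Apex1 and Exo1 are spread most widely, over 0.54 and 0.55 log2 units.

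The upstream sequences of Apex1, which varied widely between arrays, and of Msh6, which varied least, are shown for what their promoters hold. They come from RefSeq on build GRCm38.p6, whose promoter table matched 4 of the 6 genes (Ung, Apex1, Msh6 and Pms2). Capitals mark matches on either strand to the E-box CACGTG, the E2F site TTTCCCGC, the CCAAT box CCAAT and the GC box GGGCGG. The Apex1 stretch is the 55 bases at chr14:50924894-50924948 on the plus strand between the neighbouring gene Osgep and the Apex1 start, and the Msh6 stretch is the 250 bases before its start at chr17:87974800-87975049 on the plus strand.
Apex1: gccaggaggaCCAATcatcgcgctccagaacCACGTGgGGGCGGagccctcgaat
Msh6: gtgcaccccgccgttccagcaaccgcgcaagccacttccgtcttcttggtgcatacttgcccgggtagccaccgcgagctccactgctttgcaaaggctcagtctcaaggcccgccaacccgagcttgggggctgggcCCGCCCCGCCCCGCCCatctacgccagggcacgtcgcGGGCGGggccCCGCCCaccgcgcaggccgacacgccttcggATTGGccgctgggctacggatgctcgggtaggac

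In the 250 bases before the start, Apex1 had 1 E-box, 1 CCAAT box and 1 GC box, and Msh6 had 5 GC boxes and 1 CCAAT box. Ung had 2 GC boxes, and Pms2 had 3 CCAAT boxes and 2 GC boxes. The E-box occurred in 6.02% of 32851 such windows, the CCAAT box in 33.8% and the GC box in 32.7%. The E2F site occurred in 0.895% of windows and in none of these 4. Matches of letters do not show binding, and no factor was measured.

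Ung, on mouse chromosome 5, encodes the uracil-DNA glycosylase that starts base excision repair of AID lesions. Its probe had intensities of 41586 and 44509 on the Aff3-/- arrays and of 36627 and 46690 on the Aff3+/- arrays. After scaling these were 4.98 and 5.11 in Aff3-/- cells and 4.85 and 5.11 in Aff3+/- cells. The lowest array was an Aff3+/- one, and the higher array of each genotype reached the same level. Ung averaged 5.05 ± 0.09 in Aff3-/- cells and 4.98 ± 0.19 in Aff3+/- cells (SD, n = 2 each), a difference of +0.07 ± 0.15. The 95% interval of the fold ran from 0.801 to 1.37. The gene makes nuclear and mitochondrial forms of the enzyme, and which of them its single probe reads was not determined.

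Apex1, on chromosome 14, encodes the main endonuclease that cuts at abasic sites. Its intensities were 8716 and 12392 on the Aff3-/- arrays and 8640 and 11910 on the Aff3+/- arrays. Scaled, these were 2.73 and 3.27 in Aff3-/- cells and 2.76 and 3.14 in Aff3+/- cells. Each genotype held a high and a low array, and the 2 high arrays were those labelled replicate 2. Apex1 averaged 3.00 ± 0.38 in Aff3-/- cells and 2.95 ± 0.27 in Aff3+/- cells (SD, n = 2 each), and differed by +0.05 ± 0.24, with a fold between 0.661 and 1.61 at 95%. Its range over the 4 arrays exceeded that of 79.4% of all features.

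Apex2, on the X chromosome, encodes a paralogue with weaker endonuclease activity at abasic sites and a stronger 3′ exonuclease activity. Its probe had 256.8 and 292.6 intensity units on the Aff3-/- arrays and 250.5 and 280.8 on the Aff3+/- arrays. Scaled, these were -2.36 and -2.14 in Aff3-/- cells and -2.35 and -2.27 in Aff3+/- cells. The genotypes overlapped, and within each the array labelled replicate 2 was the brighter. The means were -2.25 ± 0.16 in Aff3-/- cells and -2.31 ± 0.06 in Aff3+/- cells (SD, n = 2 each), which gave a difference of +0.06 ± 0.13 and an interval of the fold from 0.815 to 1.33.

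Msh6, on chromosome 17, encodes the mismatch-binding partner that directs its MutS heterodimer to base-base mismatches, uracil-guanine included. Its intensities were 14949 and 16564 on the Aff3-/- arrays, which enclosed the 15633 and 15884 of the Aff3+/- arrays. They still did so after scaling, with 3.50 and 3.69 in Aff3-/- cells around 3.62 and 3.56 in Aff3+/- cells. Of the 6 genes it varied least, over 0.18 log2 units. It averaged 3.59 ± 0.13 in Aff3-/- cells and 3.59 ± 0.04 in Aff3+/- cells (SD, n = 2 each), a difference of +0.0085 ± 0.13 with a fold between 0.799 and 1.27 at 95%. Only 6.93% of all features had a smaller difference in either direction.

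Pms2, on chromosome 5, encodes the nicking subunit of the MutL heterodimer and was read by 2 probes. The brighter probe, which represented the gene, had 1723 and 1908 intensity units on the Aff3-/- arrays and 1631 and 1907 on the Aff3+/- arrays. The dimmer had 311.9 and 330.5 on the Aff3-/- arrays and 286.6 and 349.4 on the Aff3+/- arrays. Scaled, the brighter probe was 0.39 and 0.57 in Aff3-/- cells and 0.36 and 0.50 in Aff3+/- cells. Both probes overlapped between the genotypes and gave close differences, +0.05 ± 0.13 for the brighter and +0.03 ± 0.13 for the dimmer. For the brighter probe the means were 0.48 ± 0.13 in Aff3-/- cells and 0.43 ± 0.10 in Aff3+/- cells (SD, n = 2 each), and the fold lay between 0.812 and 1.32 at 95%.

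Exo1, on chromosome 1, encodes the exonuclease that degrades the nicked strand past the mismatch. It had intensities of 5170 and 7391 on the Aff3-/- arrays and of 5038 and 6535 on the Aff3+/- arrays. Scaled, these were 1.97 and 2.52 in Aff3-/- cells and 1.98 and 2.27 in Aff3+/- cells. The highest and the lowest scaled value both belonged to Aff3-/- cells. Exo1 averaged 2.25 ± 0.39 in Aff3-/- cells and 2.13 ± 0.21 in Aff3+/- cells (SD, n = 2 each). Its difference, +0.12 ± 0.23, was the largest of the 6, and 69.1% of all features had a smaller one in either direction. On the log2 scale its interval was second in width to that of Apex1, and its fold lay between 0.709 and 1.66 at 95%.

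**Figure D2:**
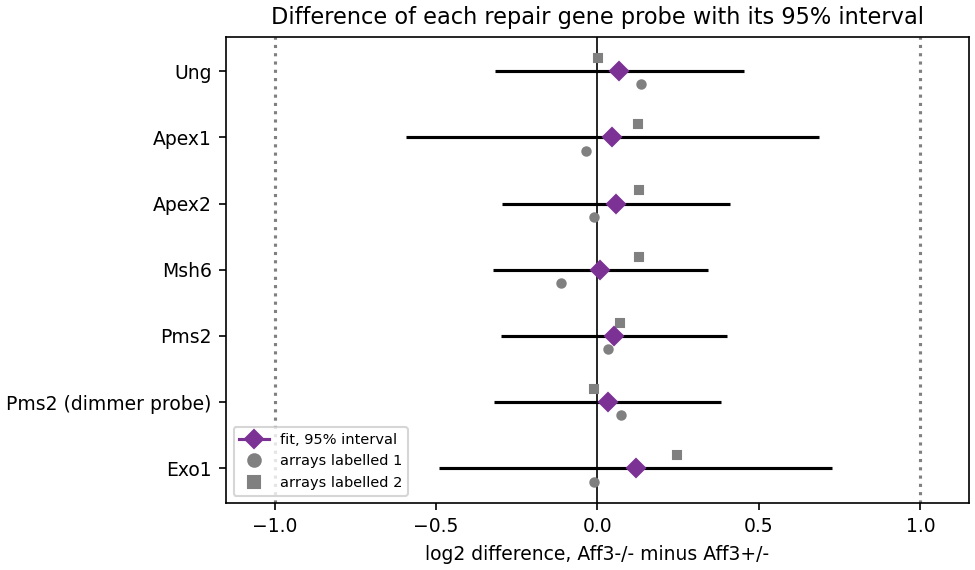
Log2 difference, Aff3-/- minus Aff3+/-, of the 7 probes in the fit of every probe on its own (diamonds, with 95% intervals as lines), beside the difference between the 2 arrays labelled replicate 1 (circles) and between the 2 labelled replicate 2 (squares). Every interval spans 0 and stays inside a doubling or halving, which the dotted lines mark.

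The 6 differences were all above 0, where 45.7% of all features were above 0 and 54.3% below, and their median was +0.05 against -0.01 over all features. The 7 plasma cell markers were also all above 0, with a median of +0.12, while 8 of the 10 B cell markers were below 0, with a median of -0.14. None of these 17 markers passed the adjusted threshold with limma, and the part of these and of the T cell markers in the repair gene values was not tested. The sign of the 6 differences depended on single arrays. Without Aff3-/- replicate 2 the median was -0.07 and 5 of the 6 genes were below 0, and without Aff3+/- replicate 1 it was -0.02 with 4 below 0. Without Aff3-/- replicate 1 it was +0.15 and without Aff3+/- replicate 2 +0.16. None of the 6 genes had both Aff3-/- arrays on the same side of both Aff3+/- arrays, as 19.6% of all features did (8.45% higher and 11.2% lower in Aff3-/- cells). With 2 arrays against 2, the smallest two-sided exact permutation p for a single gene is 0.333, so that test was not used.

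**Figure D3:**
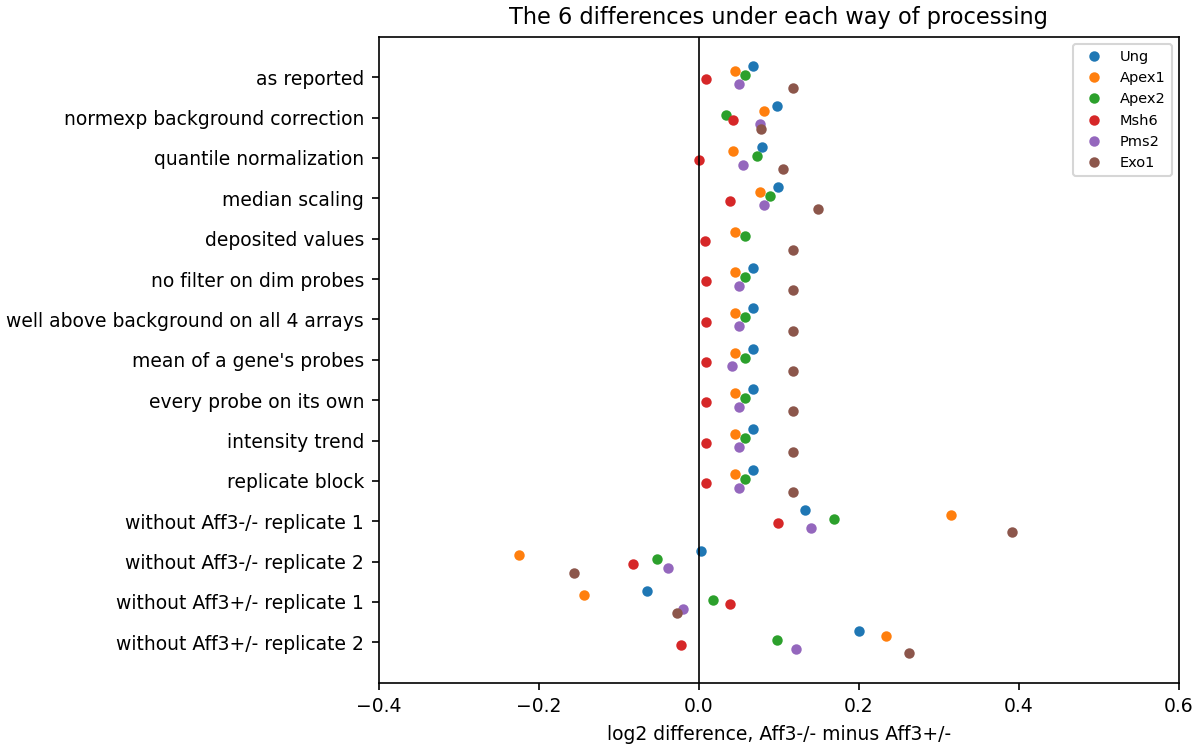
Log2 difference, Aff3-/- minus Aff3+/-, of the 6 genes (coloured points) as reported and under 14 alternatives, 1 row each. All points lie above 0 with all 4 arrays, where rows that change only the filter, variance model or block repeat the reported points. The last 4 rows, which leave out 1 array, run from -0.22 to +0.39.

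For the 6 genes, arrays differed more by replicate number than by genotype. For 5 of the 6 genes, all but Msh6, both arrays labelled replicate 2 lay above both labelled replicate 1, as they did for 30.8% of all features. Averaged over the genotypes, the replicate 2 arrays minus the replicate 1 arrays came to +0.46 for Apex1, +0.42 for Exo1 and +0.20 for Ung, and to +0.06 for Msh6. These values exceeded the genotype difference in each of the 6 genes, and in 73.2% of all features. The labels do not say that a number marks a shared mouse, litter or day.

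The same arrays were high for genes of DNA replication and division, and also for those of AID and its partners. The median of 22 S phase genes, centred on each gene's mean, was -0.13 and +0.17 on the Aff3-/- arrays labelled 1 and 2, against -0.09 and +0.07 on the Aff3+/- arrays labelled 1 and 2. The median of the 6 repair genes was -0.08 and +0.13 on those Aff3-/- arrays, against -0.13 and +0.07 on those Aff3+/- arrays. Both replicate 2 arrays lay above both replicate 1 arrays for 17 of the 22 S phase genes, 16 of 20 G2 and M phase genes and 14 of 17 replication factors used in repair. For AID and its partners, a list not chosen for the cell cycle, they lay above for 16 of 21 genes and below for 3. The centred medians of that list were -0.07 and +0.10 on the Aff3-/- arrays, against -0.09 and +0.05 on the Aff3+/- arrays. Of the 10 B cell markers, 0 had both replicate 2 arrays above, while 9 had both below, as had 33.5% of all features. Their centred medians were +0.08 and -0.21 on the Aff3-/- arrays, against +0.25 and -0.08 on the Aff3+/- arrays. The part that cell cycle and cell composition play in the repair gene values was not tested, and in bulk samples fewer cells of a type and less RNA per cell cannot be told apart.

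**Figure D4:**
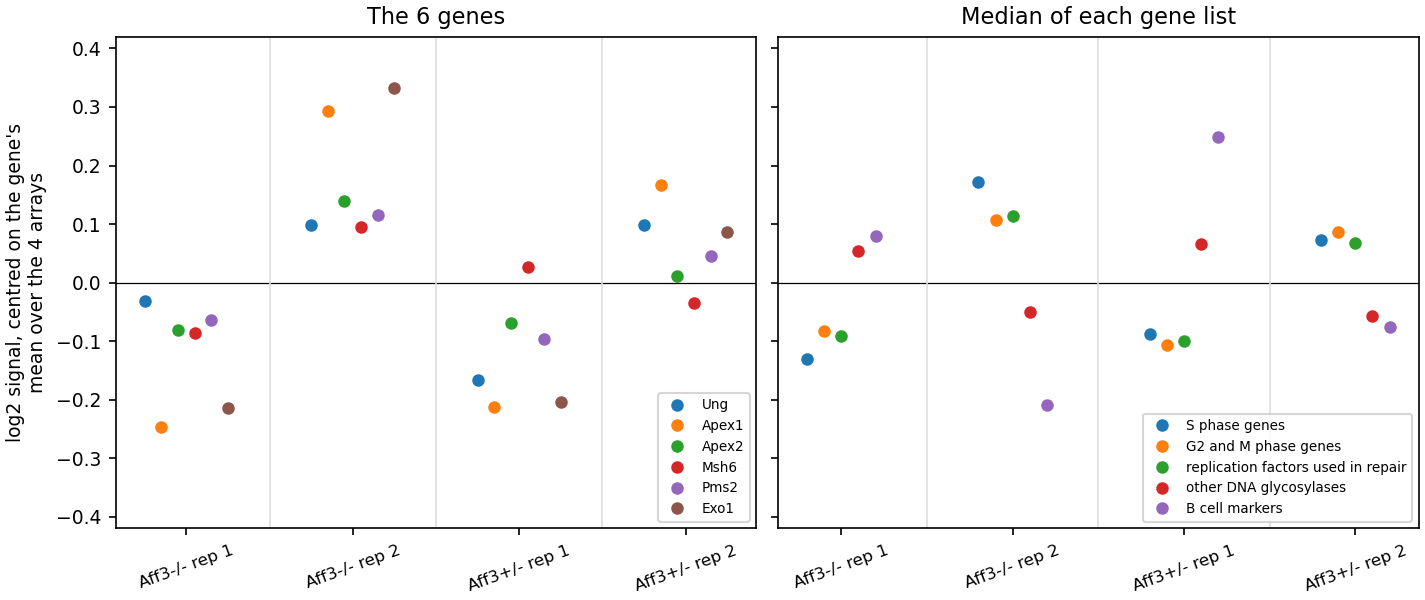
Log2 signal on each array, centred on the gene's mean over the 4 arrays, for the 6 genes (left) and as the median of 5 gene lists (right), with the 2 Aff3-/- arrays before the 2 Aff3+/- arrays. Apex1 and Exo1 reach +0.29 and +0.33 on Aff3-/- replicate 2, where the S phase median is +0.17 and the B cell marker median -0.21.

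Among the 6 genes, Apex1 and Exo1 formed the pair of widest spread and followed each other closely, with a root mean square difference of 0.048 between their centred log2 values over the 4 arrays. The closest pair was Apex2 and Pms2, at 0.026. Apex1 and Msh6 were farthest apart, at 0.20. Likeness was also measured against 130 genes of the surrounding lists. Closest to Apex1 were Rrm1 (0.017), the large subunit of ribonucleotide reductase, and the replication licensing factor Cdc6 (0.032). Closest to Exo1 were the deoxycytidylate deaminase Dctd (0.035) and again Cdc6 (0.042). The median distance over all candidates was 0.16 for Apex1 and Exo1 alike, and 0.088 to 0.11 for the other 4 genes. Ung lay nearest to the proteasome activator Psme3 (0.018) and the mitotic ubiquitin-conjugating enzyme Ube2c (0.027). Msh6 lay nearest to the ubiquitin ligase Rad18 (0.027) and the polymerase subunit Pola1 (0.029), Pms2 to the 14-3-3 protein Ywhag (0.0070) and the polymerase subunit Pole (0.016), and Apex2 near the mitotic checkpoint kinase Bub1 (0.018). These distances describe 4 arrays of 1 slide. All candidates came from lists of repair, deamination, AID partner and cell cycle genes, so genes outside these lists could not be found nearest.

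The surrounding lists of repair, deamination, AID partner and cell cycle genes held 132 genes, of which 130 passed the filter. None passed the adjusted threshold with limma, and none had an unadjusted p under 0.05. Their differences ran from -0.22 to +0.20, with 72 above 0 and 58 below and a median of +0.02. Both Aff3-/- arrays lay above both Aff3+/- arrays for 7 of them and below for 8, in all 11.5%, against 19.6% of all features.

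Among 10 further DNA glycosylases the median was -0.01, with 4 above 0 and 6 below. Mbd4, which removes thymine or uracil opposite guanine at CpG sites, was -0.54 and -0.63 on the Aff3-/- arrays and -0.38 and -0.38 on the Aff3+/- arrays. It thus lay lower on both Aff3-/- arrays, by -0.21 ± 0.11. Tdg, a glycosylase of similar substrates, was -1.10 and -1.16 on the Aff3-/- arrays and -1.26 and -1.26 on the Aff3+/- arrays. It lay higher on both Aff3-/- arrays, by +0.13 ± 0.11. Neither passed the threshold.

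The 10 genes of short patch repair after the abasic site had a median of -0.0043, with 4 above 0 and 6 below. Aplf, a histone-binding factor that works with poly(ADP-ribose) at breaks, differed by +0.20 ± 0.12 without overlap, and the poly(ADP-ribose) polymerase Parp1 by -0.11 ± 0.12 with overlap. The other mismatch recognition genes had a median of +0.0058, with 4 of 7 above 0. Mlh3, a MutL subunit, differed by +0.14 ± 0.12 and Msh4, a MutS homologue of meiosis, by -0.22 ± 0.12, both without overlap. Msh4 was dim, between -6.25 and -5.91 on the 4 arrays, and still well above background on each.

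Replication factors that fill repaired gaps had a median of +0.02 over 17 genes, 9 of them above 0. The clamp loader subunits Rfc2 (-0.13 ± 0.12) and Rfc3 (+0.10 ± 0.13) lay on opposite sides of 0, Rfc2 without overlap. Among 11 genes of translesion synthesis, which copies past damaged bases, 7 were below 0 and the median was -0.04. There the polymerase gene Poli differed by -0.09 ± 0.11 without overlap. The genes of the uracil and deoxynucleotide pool had a median of +0.03, with 6 of 10 above 0, and among them were the thymidylate synthase Tyms (+0.20 ± 0.13, no overlap) and Dctd (+0.15 ± 0.26).

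The 21 genes of AID and its partners had a median of +0.03, with 14 above 0 and a range from -0.06 to +0.08, the narrowest of the surrounding lists with over 2 tested genes. The splicing regulator Ptbp2 differed by +0.08 ± 0.12 and Prkar1a, a regulatory subunit of protein kinase A, by +0.08 ± 0.15. Of 4 APOBEC relatives 2 passed the filter, the RNA editing deaminase Apobec1 (-0.11 ± 0.22) and the antiviral deaminase Apobec3 (-0.15 ± 0.14, no overlap). S phase genes had a median of +0.03 (13 of 22 above 0), with the helicase components Gins1 at +0.10 ± 0.15 and Cdc45 at +0.07 ± 0.11, the second without overlap. G2 and M phase genes had a median of +0.03 (14 of 20 above 0), with Bub1 at +0.08 ± 0.13 and the kinetochore gene Cenpf at -0.20 ± 0.14, the second without overlap. The plot of list differences places the 6 repair genes within the range of these lists.

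**Figure D5:**
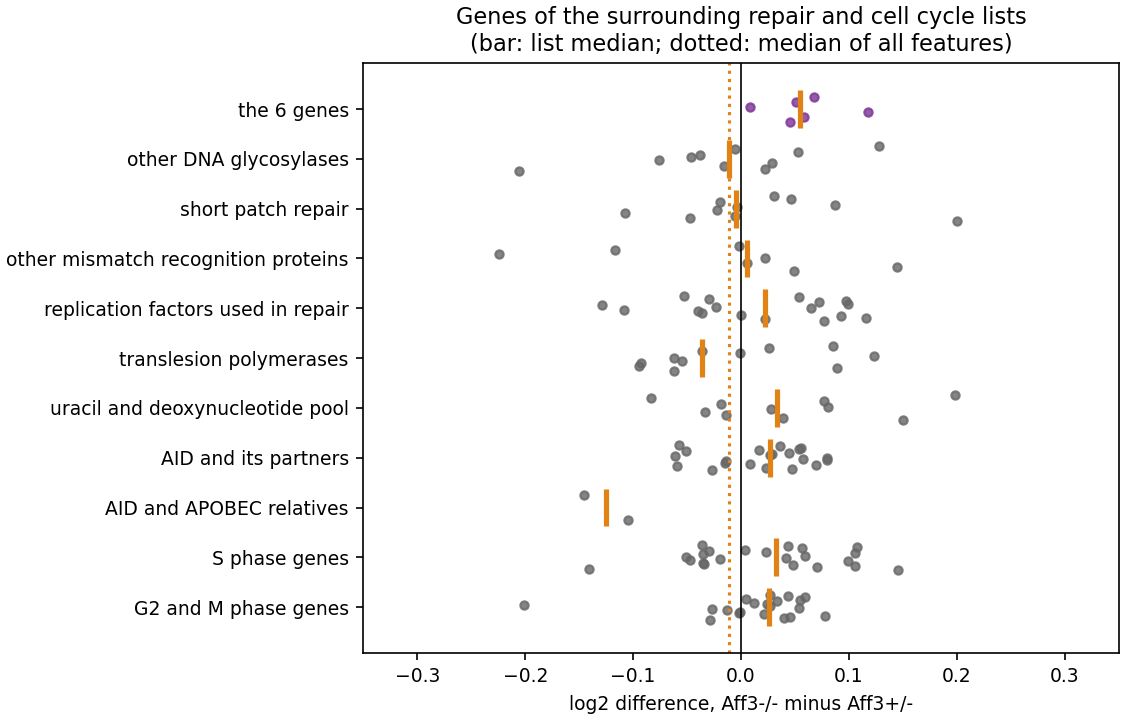
Log2 difference, Aff3-/- minus Aff3+/-, of every tested gene (points) in the 6 repair genes and in 10 surrounding lists, with list medians as bars and the median of all features as a dotted line at -0.01. All points lie between -0.22 and +0.20, and the 6 genes between +0.0085 and +0.12.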

How the data were processed

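RNA from 2 Aff3-/- and 2 Aff3+/- B cell cultures was measured on 1-colour arrays. The scanner software was Agilent Feature Extraction 10.7.1.1, per the file headers. The deposited processed signals are background-subtracted intensity values on a linear scale with no normalization between arrays, and the same files hold flags. A second deposited table holds log2 values centred by probe, with scaling not given in the sources used here. It was used as an alternative, with column medians of -0.04, 0.02, 0.13 and -0.03 for Aff3-/- replicates 1 and 2 and Aff3+/- replicates 1 and 2.

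Control spots (1377 of 44397) and spots flagged as outliers were left out. Signals were log2-transformed after division by the 75th percentile of the array (1317, 1288, 1274 and 1351 intensity units, in the same order). A probe was kept if both arrays of some genotype called it well above background (25136 probes), and the brightest probe stood for a gene (20651 features). Symbols came from RefSeq on GRCm38.p6, by transcript accession for 26581 probes. Differences were fitted with limma 3.58.1 in R 4.3.3 over all features, two-sided. P-values were adjusted by Benjamini-Hochberg with 0.05 as the threshold. The code was also run on simulated arrays with independent errors drawn from the fitted variances. That run says nothing about scatter shared by same-numbered arrays. As an alternative, normexp (offset 50) was run on the median signal, in place of the mean signal first planned. The number of arrays limits the precision.

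The members and lists were chosen with earlier results of these data known. Beside the 6 genes, the text names the 2 genes of smallest p in each list and the 2 list genes nearest to each member. A few genes named by these rules are not reported here.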

Additional observations from a re-analysis of the deposited data

How the results depend on the processing

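Other background correction, scaling, filters, probe rules and variance models, a replicate block, and the deposited values (for 4 of the 6 genes) were tried with all 4 arrays, and so was leaving out each array. None of the 6 genes, and 0 of all features, passed the adjusted threshold with limma under any setting run, and the smallest adjusted p of a repair gene was 0.93. At an unadjusted p under 0.05 stood 240 to 1457 features, against 422 as reported. All 58 differences computed with all 4 arrays were above 0, between +0.00079 (Msh6, quantile normalization) and +0.15 (Exo1, median scaling). Many of the 58 repeat the reported values. Both filter changes, every probe on its own, the intensity trend and the replicate block left each difference as reported. Averaging a gene's probes changed only Pms2. The count of signs is therefore not a count of separate checks. Leaving out 1 array gave -0.065 to +0.20 for Ung, -0.22 to +0.32 for Apex1, -0.052 to +0.17 for Apex2, -0.082 to +0.10 for Msh6, -0.039 to +0.14 for Pms2 and -0.16 to +0.39 for Exo1. A lone array meets the rule of no overlap more easily, so no count by that rule is given for these settings. The deviations of same-numbered arrays correlated at 0.56 over features, but 2 pairs do not settle whether the numbers pair samples. The replicate block left 0 of the 6 genes and 0 features past the threshold, kept each difference, narrowed the standard error of Exo1 to 0.10 and gave 1457 features at an unadjusted p under 0.05. No block for slide or scan could be fitted, since all arrays shared 1 of each.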
